A study of Mus musculus with 4 samples.

Results

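The heat shock chaperones were described here as 10 genes, chosen by name from the 47885 rows of the deposited count table: Hspa8, Hspa1a, Hspa1b and Hsph1 of the HSP70 and HSP110 families, the J proteins Dnajb1 and Dnaja1, the cytosolic HSP90 gene Hsp90aa1, the small heat shock protein gene Hspb1, and the mitochondrial chaperonin pair Hspd1 and Hspe1. All 10 had a row, and all 10 were among the 15563 genes that passed the filter on low counts. RNA was measured in 4 single C57BL/6 mouse embryos at embryonic day 5.5, 2 labelled Mettl14+/+ (WT) and 2 labelled Mettl14-/- (KO). Mettl14 encodes a subunit of the enzyme that writes N6-methyladenosine on RNA. The study asked what loss of Mettl14 does to the early embryo at a stage when mutants still look like their littermates. Per the labels' protocols each library was amplified from the polyadenylated RNA of 1 whole embryo, and the genotype was read afterwards from Mettl14 qPCR on the same amplified cDNA. A control embryo was therefore one that expressed Mettl14, a test that may not tell a homozygous from a heterozygous control. The sources used here do not give the deleted part of the gene, a Cre driver or the litters.

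Heat shock chaperones bind proteins that are unfolded or newly made and help them fold. HSP70 proteins do so in cycles of ATP binding and hydrolysis: J proteins bring the client and trigger hydrolysis, and nucleotide exchange factors such as the HSP110 protein of Hsph1 reset the cycle. HSP90 acts later, on clients such as kinases and steroid receptors, small heat shock proteins hold unfolded proteins without ATP, and HSP60 with its lid HSP10 forms the folding chamber of mitochondria. Under heat or other protein stress the factor HSF1 binds repeated GAA and TTC units, called heat shock elements, and raises transcription of many of these genes, while Hspa8 is made at a high level without stress.

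The regulatory sequences of the members were searched for exact runs of such units close to the start, and Hspa1a and Hspa1b were compared with each other. RefSeq windows on GRCm38.p6 (the mm10 sequence), from 250 bases before to 50 bases after each start, matched 8 of the 10 members, some with several starts; Hsp90aa1 and Hspa8 were not matched. The searches used a run of 3 alternating units (GAANNTTCNNGAA or TTCNNGAANNTTC, which are each other's reverse complement) and a run of 2 (GAANNTTC or TTCNNGAA, each its own reverse complement). A run of 3 always contains runs of 2. Printed below are 200 bases before the starts of Hspa1a (chr17:34972157-34972356, minus strand), Hspa1b (chr17:34959239-34959438, minus strand) and Dnajb1 (chr8:83607975-83608174, plus strand), and the 107 bases between the first exons of Hspd1 and Hspe1, which are transcribed away from each other (chr1:55088025-55088131, printed on the Hspe1 strand). Capitals mark the runs of units found.
Hspa1a: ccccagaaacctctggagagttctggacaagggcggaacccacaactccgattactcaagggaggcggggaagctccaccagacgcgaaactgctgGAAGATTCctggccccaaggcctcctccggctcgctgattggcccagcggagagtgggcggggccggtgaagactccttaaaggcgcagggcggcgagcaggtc
Hspa1b: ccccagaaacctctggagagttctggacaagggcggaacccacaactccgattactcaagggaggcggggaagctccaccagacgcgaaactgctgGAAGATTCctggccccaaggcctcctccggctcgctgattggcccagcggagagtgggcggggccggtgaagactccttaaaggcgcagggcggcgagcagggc
Dnajb1: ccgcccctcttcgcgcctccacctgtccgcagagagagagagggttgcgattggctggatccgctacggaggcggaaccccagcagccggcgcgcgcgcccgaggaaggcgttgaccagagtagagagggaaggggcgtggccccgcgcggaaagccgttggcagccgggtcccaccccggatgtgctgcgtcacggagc
Hspd1-Hspe1: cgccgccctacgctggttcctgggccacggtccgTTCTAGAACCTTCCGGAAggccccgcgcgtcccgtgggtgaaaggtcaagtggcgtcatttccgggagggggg

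Between Hspd1 and Hspe1 the run had 4 units and 18 bases (chr1:55088059-55088076), and it lies inside the first exon of a longer annotated Hspd1 isoform. Hsph1 held the 3-unit run TTCTGGAAAGTTC just after its start (chr5:149636288-149636300, minus strand). Runs of 3 were thus found for 3 of the 8 matched members, Hsph1, Hspd1 and Hspe1, with Hspd1 and Hspe1 sharing 1 element, and for 0.662% of the 27025 genes in the table. Runs of 2 were found for 7 of the 8, and for 17.0% of those genes. Hspa1a and Hspa1b each held 1 such run at the same place, from -104 to -97 relative to the start. Dnajb1 held neither in its windows. Only exact GAA and TTC units were searched for, so a heat shock element with a changed base is missed and left in small letters. A member without a match may therefore still hold an element. These matches are letters in a window, and no binding was measured.

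The printed stretches of Hspa1a and Hspa1b differ at 1 of 200 bases, and the coding sequences of these genes, which lie 9951 bases apart, are 99.4% identical, with 11 of 1926 aligned positions differing. The division of reads between them is therefore uncertain, and their sum is given as well. The coding sequence of Hspa8 is 73.9% identical to that of Hspa1a. Exons of Dnaja1 overlap those of Smu1 on the opposite strand over 608 bases, those of Hspa1a overlap the gene model Gm20481 over 564 bases, and those of Hspd1 and Hspe1 overlap each other over 112 bases. With the strand setting of the counting not given in the sources used here, reads from overlapping exons cannot be assigned with certainty. Gm20481 had 0 counts in each embryo. Of 9 annotated processed pseudogenes named after a member, Hspd1-ps3 had the most counts, 44 to 58 per embryo.

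Total counts ran from 16108062 in WT replicate 1 to 28698541 in KO replicate 2, so that 1 count was worth 0.0358 to 0.0589 CPM (counts in proportion to the scaled library total). Mettl14 itself had 33.9 and 31.6 CPM across the WT pair, against 4.62 and 8.03 CPM across the KO pair. KO replicate 2 was the least like the others: across tested genes its log2 CPM correlated with the other 3 embryos at 0.879 to 0.923. The other pairs lay close above, between 0.925 and 0.943. KO replicate 2 had the largest total but the fewest genes with a count, 18346. WT replicates 1 and 2 had 21488 and 19603 such genes, and KO replicate 1 had 21250. With 2 embryos against 2, an exact permutation test of a single value cannot go below p = 0.333 (two-sided), so tests came from the edgeR quasi-likelihood fit across all 15563 genes.

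Together the 10 chaperone genes took 0.897% (replicate 1) and 0.876% (replicate 2) of all counts for WT, against 0.907% and 0.915% for KO. Hspa8 alone held between 47.9% and 54.4% of those counts. Per kilobase of transcript the order was the same at the top and bottom in every embryo: Hspa8, then Hspe1, Hspd1 and Dnaja1 in ranks 1 to 4, and Hspb1, Hsph1, Hsp90aa1 and Dnajb1 exchanging ranks 5 to 8 before Hspa1b and Hspa1a. In WT, Hspb1 at 109 ± 40.9 CPM per kilobase and Hsph1 at 90.4 ± 5.95 (SD, n = 2) did not differ beyond their spread. Dnajb1 ranked 8 in both WT embryos, 7 in KO replicate 1 and 6 in KO replicate 2. The plot of member levels uses the CPM scale, which does not correct for length, and there Hspd1 lies above Hspe1 in every embryo. The values per kilobase divide the counts of a whole gene by the length of 1 principal transcript. Use of other isoforms and evenness of coverage along transcripts were not examined, so ranks and ratios per kilobase depend on that choice.

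**Figure D1:**
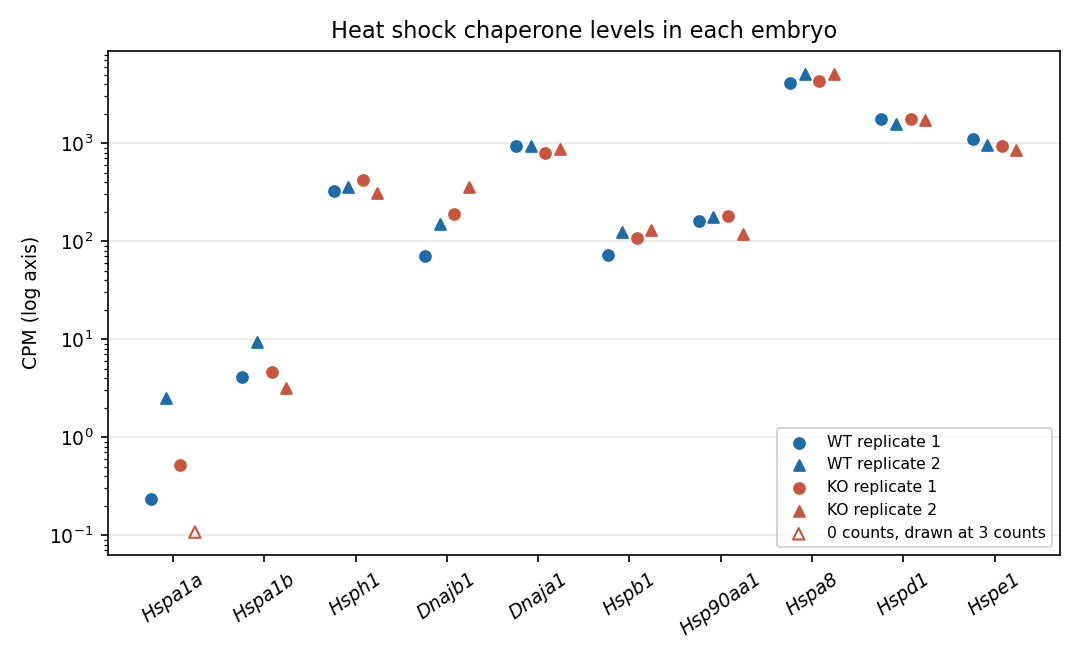
Levels of the 10 chaperone genes in CPM (log axis), 1 point per embryo: blue for WT, red for KO, circles for replicate 1 and triangles for replicate 2. The open triangle is Hspa1a in KO replicate 2, which had 0 counts and is drawn at the level of 3 counts (0.108 CPM). Dnajb1 is the member whose KO points both lie above its WT points, from 70.3 to 148 CPM in WT and from 190 to 356 CPM in KO, while Hspa8, Hspd1 and Dnaja1 are nearly level across embryos.

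Dnajb1 (ENSMUSG00000005483, chromosome 8, 83608193 to 83612653), a J protein that works with HSP70 and is strongly induced by heat, had the largest separation among the well-covered members. WT replicates 1 and 2 had 1194 and 2774 counts (70.3 and 148 CPM), and KO replicates 1 and 2 had 4030 and 9936 counts (190 and 356 CPM). Both KO embryos were above both WT embryos, but the embryos of a group differed from each other by nearly as much as the groups did: WT replicate 2 was 2.11-fold above WT replicate 1, KO replicate 2 was 1.87-fold above KO replicate 1, and KO replicate 1 was 1.28-fold above WT replicate 2. The fitted log2 fold change of 1.32 (SE 0.45, 2 embryos per group) equals a 2.50-fold difference with a 95% interval of 1.21 to 5.15. The edgeR p was 0.0191 unadjusted and 0.524 adjusted over all genes, so Dnajb1 did not pass. An unadjusted p under 0.05 with a higher value in KO was reached by 4.74% of tested genes. DESeq2 gave an adjusted p of 0.137 and limma-voom 0.561, while edgeR without the low-count filter gave 0.0349, past the threshold. Without KO replicate 2 the log2 fold change was 0.81, without WT replicate 1 it was 0.92, and with WT replicate 2 or KO replicate 1 left out it was 1.97 or 1.78.

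The second J protein gene, Dnaja1 (ENSMUSG00000028410, chromosome 4, 40722150 to 40737149), encodes a farnesylated partner of HSC70 in the cytosol. Its level was 939 and 930 CPM in the WT embryos and 800 and 879 CPM in the KO embryos. The KO values lay below the WT values by a small margin (log2 fold change -0.15, SE 0.25), with an edgeR adjusted p of 0.944. The 95% interval ran from 0.604-fold to 1.34-fold.

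Hspa8 (ENSMUSG00000015656, chromosome 9, 40800984 to 40810087), the constitutive HSP70 also called HSC70, had 4071 and 5120 CPM in the WT embryos and 4286 and 5025 CPM in the KO embryos. Each KO value lay between the WT values. The log2 fold change was 0.02 (SE 0.24, edgeR adjusted p = 0.994), and its interval ran from 0.688-fold to 1.49-fold. In whole embryos, fewer cells of a type that expresses a gene and less of its RNA per cell cannot be told apart.

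The stress-inducible HSP70 genes were near the bottom of the range. Hspa1b (ENSMUSG00000090877, chromosome 17, 34956436 to 34959238) had 70 and 174 counts (4.12 and 9.29 CPM) across the WT pair, and 98 and 88 counts (4.62 and 3.15 CPM) across the KO pair. Hspa1a (ENSMUSG00000091971, chromosome 17, 34969190 to 34972156) had 4 and 47 counts across the WT pair, and 11 and 0 counts across the KO pair. For both genes WT replicate 2 was the highest embryo and the groups overlapped. Summed, they came to 4.36 and 11.8 CPM for WT and to 5.14 and 3.15 CPM for KO, and Hspa8 exceeded the sum 434-fold to 1594-fold in single embryos. The sums would be too low, and the excess of Hspa8 too high, if reads that match both genes were left out. Hspa1b differed by -0.79 on the log2 scale (SE 0.62, interval 0.214-fold to 1.57-fold, edgeR adjusted p = 0.858), the sum by -0.96 (adjusted p = 0.811). Hspa1a differed by -2.42 (SE 1.83, adjusted p = 0.848), a fold that rests on 4 libraries with at most 47 counts. WT replicate 2 decided these values: without it Hspa1b stood at -0.08 and Hspa1a at 0.13.

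Hsph1 (ENSMUSG00000029657, chromosome 5, 149614287 to 149636376), the HSP110 gene whose promoter window held a run of 3 units, had 328 and 360 CPM in WT and 416 and 310 CPM in KO. The KO embryos lay on either side of the WT embryos. The log2 fold change was 0.08 (SE 0.29, edgeR adjusted p = 0.980), with an interval from 0.666-fold to 1.67-fold.

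Hsp90aa1 (ENSMUSG00000021270, chromosome 12, 110690605 to 110702728), the stress-inducible form of cytosolic HSP90, had 162 and 176 CPM in WT and 181 and 118 CPM in KO. KO replicate 1 was the highest embryo and KO replicate 2 the lowest. The log2 fold change of -0.18 (SE 0.33, edgeR adjusted p = 0.958) turned to 0.11 when KO replicate 2 was left out, and its interval ran from 0.523-fold to 1.50-fold. The constitutive form, Hsp90ab1, had 4004 and 3844 CPM in WT and 3505 and 3746 CPM in KO. Counts of Hsp90ab1 were thus 24.7 and 21.8 times those of Hsp90aa1 in WT and 19.3 and 31.8 times in KO, without correction for length, and the log2 fold change of Hsp90ab1 was -0.11 (SE 0.23, adjusted p = 0.962).

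Hspb1 (ENSMUSG00000004951, chromosome 5, 135887919 to 135889563), the small heat shock protein HSP27 (HSP25 in mouse), had 72.4 and 125 CPM in WT and 108 and 131 CPM in KO. WT replicate 1 was the lowest, and the KO embryos lay on either side of WT replicate 2. The log2 fold change was 0.28 (SE 0.37, edgeR adjusted p = 0.928), with an interval from 0.675-fold to 2.18-fold. It was 0.73 without WT replicate 2 and -0.04 without WT replicate 1.

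Hspd1 (ENSMUSG00000025980, chromosome 1, 55077835 to 55088243) encodes HSP60 and Hspe1 (ENSMUSG00000073676, chromosome 1, 55088132 to 55091307) its lid, HSP10. The level of Hspd1 was 1749 and 1585 CPM in WT and 1748 and 1725 CPM in KO, the narrowest range of the members (1.10-fold from lowest to highest). The level of Hspe1 was 1109 and 956 CPM in WT and 929 and 860 CPM in KO, with both KO embryos below both WT embryos. Their log2 fold changes were 0.06 (SE 0.24) for Hspd1 and -0.21 (SE 0.25) for Hspe1, with edgeR adjusted p-values of 0.982 and 0.921. The intervals were 0.712-fold to 1.52-fold and 0.579-fold to 1.30-fold.

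By edgeR none of the 10 members passed the adjusted threshold of 0.05, nor did any of the genes tested (0%). Mettl14, by which the embryos were genotyped, did not pass either (log2 fold change -2.37, SE 0.45, edgeR adjusted p = 0.274). DESeq2 gave Mettl14 an adjusted p of 0.000418. A gene that did not pass by edgeR was thus not shown to be unchanged. One member had an unadjusted p under 0.05, against 7.82% of tested genes. DESeq2 also called 0 members, where it called 0.964% of genes higher and 0.578% lower, and limma-voom called 0 members and 0 genes. Dnajb1 was the 1 member called without the low-count filter, where 0.619% of genes were called higher and 0.398% lower. The fitted values were higher in KO for 5 members and lower for 5, where 52.3% of all tested genes were lower. Their median log2 fold change was -0.07, beside -0.03 over all genes tested, and 7 of the 10 lay within 0.3 of 0, as did 37.3% of tested genes. Both KO embryos were above both WT embryos for 1 member, where this held for 19.4% of tested genes, and below for 2 members, where it held for 18.8%. In either direction the groups were separate for 3 of the 10 members and for 38.2% of tested genes. The difference between the WT embryos exceeded the fitted group difference for 7 of the 10 members, and that between the KO embryos for 5. Both were smaller than the group difference for 2 members. The shares of all tested genes for which these hold were not counted.

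**Figure D2:**
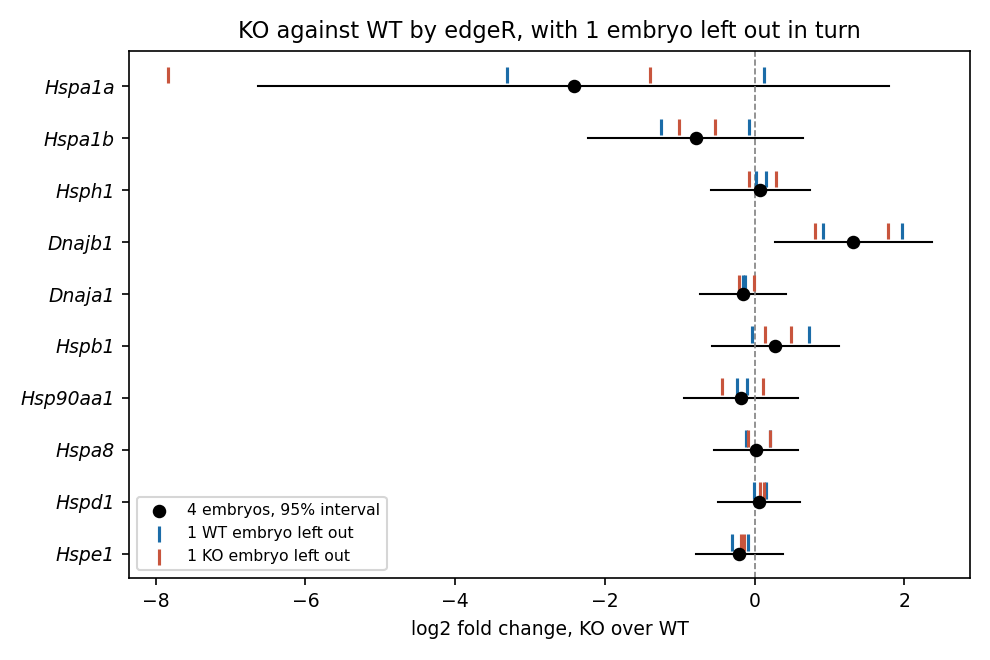
Log2 fold change of KO over WT for the 10 members by edgeR: black points with 95% intervals for all 4 embryos, and ticks for fits with 1 embryo left out (blue for a WT embryo, red for a KO embryo). The interval of Dnajb1 (0.28 to 2.37) is the only one of the 10 that leaves out 0 before adjustment, and the ticks of Hspa1a spread from -7.84 to 0.13.

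Ratios between members that act together were also formed, chosen after their values were seen and without a test. Per kilobase, Hspa8 exceeded Dnajb1 72.5-fold and 43.3-fold in the WT embryos and 28.2-fold and 17.7-fold in the KO embryos. Dnaja1 exceeded Dnajb1 7.12-fold and 3.35-fold in WT and 2.24-fold and 1.32-fold in KO. These ratios follow the level of Dnajb1, since Hspa8 and Dnaja1 were nearly level. The ratio of Hspd1 to Hspe1 was 0.504 and 0.530 in WT and 0.601 and 0.641 in KO, so these groups did not overlap either. How often ratios of other gene pairs separate the groups was not counted. The levels of single genes did so for 38.2% of tested genes.

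**Figure D3:**
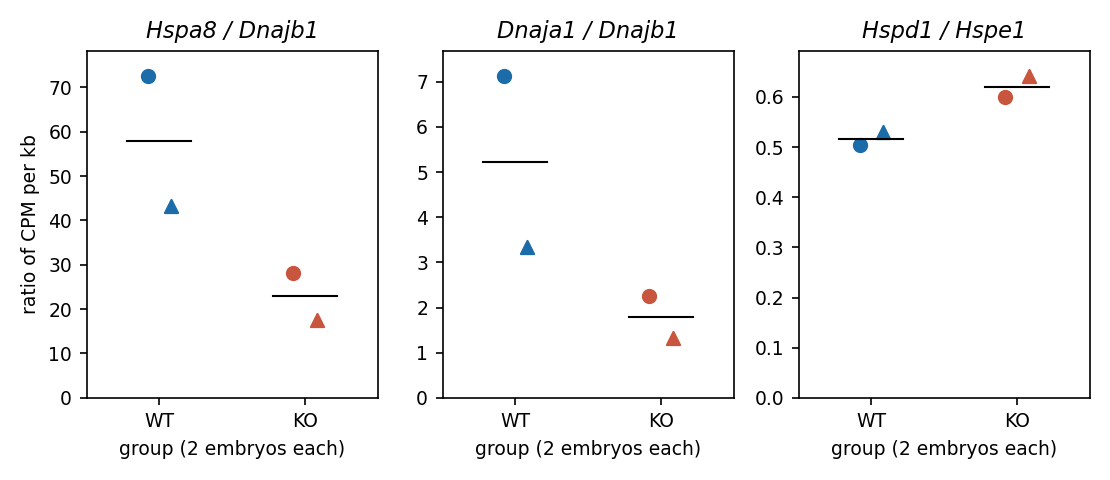
Ratios of CPM per kilobase in each embryo (linear axes from 0), with circles for replicate 1, triangles for replicate 2 and a line at each group's mean. Hspa8 over Dnajb1 and Dnaja1 over Dnajb1 are lower in both KO embryos, at 17.7 to 28.2 and 1.32 to 2.24, and Hspd1 over Hspe1 is higher, at 0.601 to 0.641 against 0.504 to 0.530. The ratios were chosen after their values were seen.

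Other chaperones, their cofactors and stress-responsive genes were covered by 10 lists of 112 distinct genes, of which 103 were tested and 4 are in more than 1 list. By edgeR 0 of them passed. An unadjusted p under 0.05 was reached by 10, of which 4 are immediate early genes and no chaperones, and by 7.82% of all tested genes. DESeq2 called 5 higher, among them the immediate early genes Egr1 and Fos, where it called 0.964% of all genes higher and 0.578% lower. Beside the counts by direction given below, 47.7% of all tested genes had a higher and 52.3% a lower fitted value in KO. Among the heat shock factors, Hsf1 had 46.7 and 62.0 CPM in WT and 46.7 and 110 CPM in KO (log2 fold change 0.52, SE 0.45, edgeR adjusted p = 0.870), with KO replicate 1 level with WT replicate 1. Hsf2 and the HSF1-binding protein gene Hsbp1 differed by -0.21 and -0.09. Hsf4, with at most 11 counts, was not tested. The other HSP70 and HSP110 genes had a median of -0.09 over 8 tested, with 3 higher and 5 lower values. Hspa5, the HSP70 of the endoplasmic reticulum, and Hspa9, that of mitochondria, differed by -0.08 and -0.10, and Hspa12a, Hspa4 and Hspa13 by -0.68, -0.21 and 0.23.

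The other J proteins had 5 higher and 14 lower values among 19 tested (median -0.22). Dnajb6, a suppressor of protein aggregation, had 338 and 385 CPM in WT and 544 and 567 CPM in KO (log2 fold change 0.62, SE 0.27, edgeR adjusted p = 0.629), while Dnajc2 and Dnaja3 differed by -0.35 and -0.39. Cofactors of HSP70 had a median of 0.14 over 10 genes, 7 of them higher. In this list Bag5, which stimulates nucleotide exchange on HSP70, had 56.2 and 72.3 CPM in WT and 209 and 199 CPM in KO. Both KO embryos were above both WT embryos, as held for 19.4% of tested genes, with a log2 fold change of 1.67 (SE 0.32). The adjusted p of Bag5 was 0.274 by edgeR, 0.284 by limma-voom and 0.000763 by DESeq2. Bag6 and Sil1 differed by -0.65 and 0.78.

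Co-chaperones and other forms of HSP90 had 10 lower values among 14 (median -0.28), led by Hsp90b1, the HSP90 of the endoplasmic reticulum, at 770 and 685 CPM in WT and 496 and 383 CPM in KO (log2 fold change -0.73, SE 0.28, edgeR adjusted p = 0.568). Ppid and Fkbp4, immunophilins that bind HSP90, differed by -0.43 and -0.61. The cytosolic chaperonin TRiC, which folds actin and tubulin, and prefoldin had lower values for 13 of 14 genes (median -0.34). Of all tested genes 52.3% were lower. In this list 0 were called and 0 had an unadjusted edgeR p under 0.05. Both KO embryos were below both WT embryos for 6 of the 14 and above for 1, against 18.8% and 19.4% of tested genes. The list summed to 8393 and 11988 CPM in WT and to 7526 and 9013 CPM in KO, so KO replicate 2 exceeded WT replicate 1. Pfdn6, Cct4 and Cct2 differed by -0.61, -0.48 and -0.39. The other small heat shock proteins had higher values for all 5 tested (median 0.50), where 47.7% of all tested genes were higher. Both KO embryos were above both WT embryos for 2 of the 5, against 19.4% of tested genes. Hspb8, a partner of BAG3, had 5.77 and 11.3 CPM in WT and 16.8 and 25.5 CPM in KO (log2 fold change 1.31, SE 0.50, edgeR adjusted p = 0.568). Cryab and Hspb11 differed by 1.14 and 0.50.

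Mitochondrial proteostasis genes had a median of -0.11 over 11. Grpel2, a nucleotide exchange factor for mitochondrial HSP70, had 84.3 and 76.5 CPM in WT and 183 and 195 CPM in KO (log2 fold change 1.23, SE 0.30). Its adjusted p was 0.362 by edgeR, 0.368 by limma-voom and 0.0310 by DESeq2. The related gene Grpel1 differed by 0.39 and the protease gene Yme1l1 by -0.48. Other stress genes with a response to HSF1 had a median of 0.04 over 11, and among them Chordc1, an HSP90 partner, differed by -0.43. Immediate early genes, which respond quickly to growth factors and other stimuli, had 10 higher values among 12 (median 0.96). Both KO embryos were above both WT embryos for 7 of the 12 and below for 1, against 19.4% and 18.8% of tested genes. The list summed to 289 and 303 CPM in WT and to 595 and 321 CPM in KO. Without KO replicate 1 the median was 0.52. Egr1 had 4.42 and 2.40 CPM in WT and 72.1 and 18.8 CPM in KO (log2 fold change 3.74, SE 0.71). Its adjusted p was 0.274 by edgeR, 0.351 by limma-voom and 8.69e-07 by DESeq2. Fos and Junb differed by 2.04 and 1.23. In the KO group these 3 genes were highest in replicate 1, while Dnajb1 was highest in replicate 2.

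**Figure D4:**
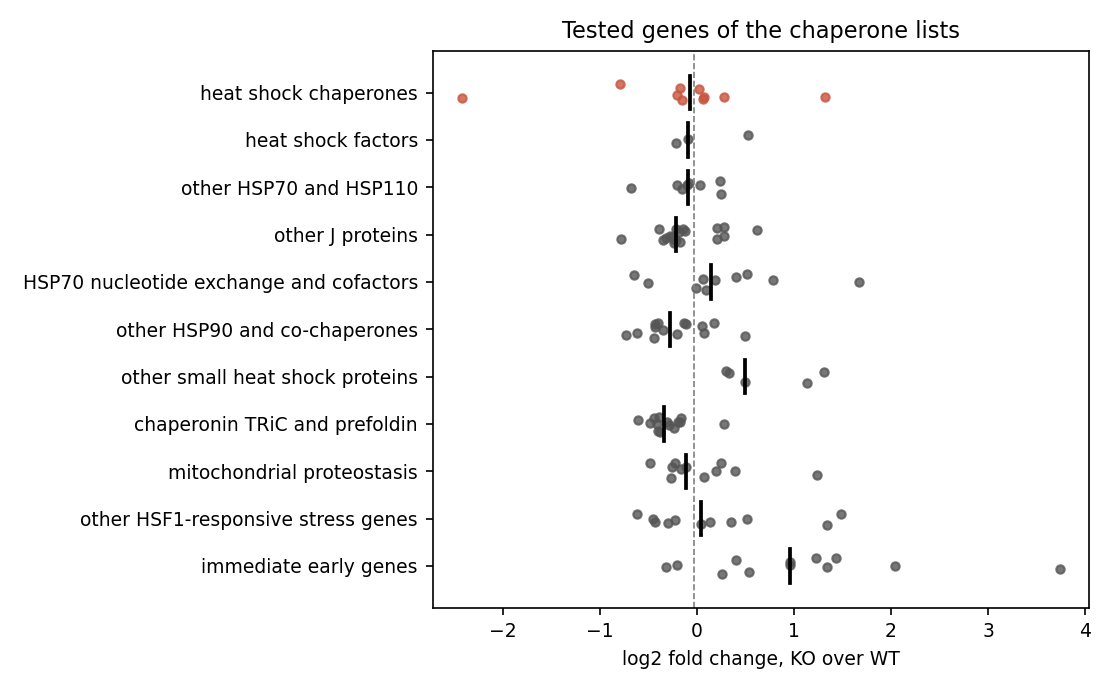
Log2 fold change of KO over WT for each tested gene of the 10 chaperone members (red) and of the 10 other lists (grey), with a black bar at each list's median and a dashed line at the median of all genes tested (-0.03). The members centre on -0.07, TRiC and prefoldin on -0.34, and the immediate early genes on 0.96.

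Markers of the tissues in and around the embryo moved with the groups to differing degrees. All 10 epiblast markers were detected, summed to 3288 and 3504 CPM in WT and 2370 and 4520 CPM in KO, as were all 10 of the extraembryonic ectoderm (2576, 2621, 2664 and 1788 CPM in the same order). Visceral endoderm markers summed to 665 and 1786 CPM in WT and to 255 and 330 CPM in KO, with 9 of 10 lower. Of 8 markers of the ectoplacental cone and giant cells, Ctsq, Prl2c2 and Tpbpa were at 0 throughout, and the list summed to 355 and 548 CPM in WT and to 1776 and 1015 CPM in KO. Maternal decidua markers summed to 31.6 and 37.7 CPM in WT and 10.9 and 15.4 CPM in KO, with Hoxa11 at 0. Blood and immune markers stayed at 4.16 to 5.71 CPM, with Hbb-bs and Lyz2 among those at 0. The epiblast sum hides mixed markers, with 5 higher and 5 lower values in KO. The extraembryonic ectoderm sum does so too, with 6 higher and 4 lower values. Of 7 tested decidua markers 6 were lower and 1 was higher. DESeq2 called 5 visceral endoderm and 2 decidua markers lower, where it called 0.578% of all genes lower. It called 3 ectoplacental cone and giant cell markers higher, against 0.964% of all genes. By edgeR and limma-voom 0 of these were called. The part of these differences in the values of Dnajb1 and of the other chaperones was not tested.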

How the data were processed

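The deposited values are read counts per gene, whole numbers without normalisation. TopHat, Cufflinks and mm10 are named, per the submitters' processing notes, without a role, and the program that counted reads was not given in the sources used here. Of 47885 rows, 46574 had an identifier in GENCODE M21 (GRCm38), which gave symbols, coordinates and lengths of principal transcripts; 816 rows had names of another kind and 495 Ensembl identifiers found no match. No row carried the symbol Hspa14, so this gene of the other HSP70 and HSP110 list was not analysed.

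KO was compared with WT by edgeR 4.0.16 in R 4.3.3: TMM scaling, a robust quasi-likelihood F test, filterByExpr with a minimum count of 10 and total of 15, Benjamini-Hochberg adjustment over 15563 genes, threshold 0.05. The SE is the absolute log2 fold change over the square root of F, and 95% intervals use the t distribution. CPM used TMM-scaled libraries, and log2 CPM a prior count of 2. The fit was tested on simulated data. The p-values set the difference between the groups against the spread between single embryos of a group, with 2 embryos per group. In edgeR that spread was estimated partly from other genes, which also holds for the 95% intervals. A count of 0 allows up to 3 counts, which covers counting error alone: reads were amplified. Alternatives were DESeq2 1.42.0, limma-voom (limma 3.58.1), other filters and scalings, a replicate block, Hspa1a and Hspa1b summed, and each embryo left out.

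Members and lists were chosen with earlier results of these data known. Named were all members, the 3 genes of each other list with the smallest unadjusted p, every gene of a list under 5, and Mettl14, Hsf1, Hsp90ab1, Hspa5 and Hspa9; 1 gene of that rule is counted in totals but not reported here.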

Additional observations from a re-analysis of the deposited data

How the results depend on the processing

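The fit as reported called 0 genes, as did limma-voom, RLE scaling, library totals, Hspa1a and Hspa1b summed, and at least 50 counts in 2 libraries. DESeq2 called 150 genes higher and 90 lower, edgeR without a low-count filter 157 and 101, and leaving out 1 embryo 14 to 133 higher and 1 to 209 lower. Among the chaperones 1 member passed with no low-count filter, Dnajb1 at 1.33 (adjusted p = 0.0349), and 0 passed with any 1 embryo left out. Leaving 1 embryo in a group assumes that it varies like the other group. Nothing in the labels ties a replicate number to a litter or day. Across genes the difference between the WT replicates correlated at 0.329 with that between the KO replicates. With the replicate block edgeR called 52 genes higher (0.334%) and 19 lower (0.122%), with 1 member, Dnajb1, at 1.35 (adjusted p = 0.0405).

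With 1 embryo left out, the log2 fold changes ran from -7.84 to 0.13 for Hspa1a, -1.25 to -0.08 for Hspa1b, -0.070 to 0.29 for Hsph1, 0.81 to 1.97 for Dnajb1, -0.21 to -0.01 for Dnaja1, -0.039 to 0.73 for Hspb1, -0.44 to 0.11 for Hsp90aa1, -0.12 to 0.21 for Hspa8, -0.0014 to 0.15 for Hspd1 and -0.30 to -0.08 for Hspe1. At -7.84 the KO group had 0 counts of Hspa1a, and the fold rests on the prior count. Under the other alternatives each member kept its sign. Hspa1a had no value with at least 50 counts in 2 libraries. The members' median ran from -0.10 to 0.06 with 1 embryo left out.

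The list medians with 1 embryo left out ran from -0.076 to 0.21 (heat shock factors), -0.15 to -0.021 (other HSP70 and HSP110), -0.18 to 0.037 (other J proteins), 0.057 to 0.36 (HSP70 cofactors), -0.39 to 0.015 (HSP90 and co-chaperones), 0.36 to 1.16 (small heat shock proteins), -0.46 to -0.14 (TRiC and prefoldin), -0.068 to 0.020 (mitochondrial proteostasis), -0.069 to 0.33 (other stress genes) and 0.52 to 1.20 (immediate early genes). No low-count filter moved the heat shock factors to 0.23 and the small heat shock proteins to 1.14, the filter of 50 counts the latter to 1.15, and library totals the mitochondrial list to -0.084. The other HSP70 and HSP110 list moved to -0.026 with limma-voom and to -0.033 with the replicate block. Where a filter changed a median, other genes of the list were tested; the other causes were not tested.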
